A study of Mus musculus with 6 samples.

Results

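The 34 genes described here mark the cell classes of the conducting airway: 17 of ciliated cells, 9 of secretory cells, the airway transcription factor Sox2, 5 of basal and squamous cells, and 2 of neuroendocrine cells. They were taken by symbol from a count table of 24421 genes, in which all 34 had a row. The table holds poly(A) RNA-seq of alveolar type II cells (AT2s), the surfactant-producing cells of the mouse alveolus, sorted by FACS on a tdTomato lineage label. AT2CTRL cells came from Sftpc-CreERT2/+; R26-tdTomato/+ mice (3 libraries). AT2CAB cells came from Sftpc-CreERT2/+; R26-tdTomato/R26-caBmpr1a mice (3 libraries), in which the same tamoxifen-activated Cre also switches on BMPR1a, a type I receptor for BMPs, in a version that signals without ligand. From its organoids, the paper proposes that some labeled AT2s recombined the reporter without the caBmpr1a allele. The sorted AT2CAB cells may thus include cells without the active receptor. In each group, 2 mice were 12 weeks old and 1 was 16 weeks old. All 6 samples carry the same Cre and reporter alleles, and the Cre is expressed wherever the Sftpc locus is active, so the label marks cells by Sftpc expression at the time of tamoxifen and not by alveolar position. The comparison asks whether Tppp3, a gene widely used as a ciliated cell marker, differed between the genotypes together with other ciliated genes or without them.

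Airway ciliated cells are made when Mcidas and Foxj1 act in sequence: Mcidas starts centriole amplification and exit from the cell cycle, and Foxj1, with RFX factors, turns on the genes of motile axonemes. Secretory (club) cells release secretoglobins such as Scgb1a1 and carry detoxifying enzymes such as Cyp2f2, and goblet cells release mucins. Basal cells are the Trp63- and Krt5-positive stem cells of the larger airways. In the distal mouse lung some cells express both Scgb1a1 and Sftpc, so secretory transcripts can occur in sorted AT2s. TPPP3 is a member of the TPPP family, proteins that bind and bundle microtubules.

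A sequence feature that the choice of genes did not use was looked for in the promoters. RefSeq windows on GRCm38.p6 (the build of mm10) were found for 23 of the 34 genes, 13 of them ciliated (14 windows). In the 250 bases before the start site, the 6 letters GTTGCC, the half-site of RFX factors, stood on either strand in 7 of 14 ciliated windows (50%), in 0 of 6 secretory windows, and in 10.4% of the 32851 windows of all genes. The forkhead letters GTAAACA stood in 0 of 14 ciliated windows and in 3.17% of all windows. The windows of Foxj1 and Tppp3 were not analysed here, nor were those of Rsph1, Rsph4a, Scgb1a1, Scgb3a2, Muc5b, Muc5ac, Trp63, Krt4 and Krt15. The matches below, 5′ to 3′ along the gene with the half-site (GTTGCC, or GGCAAC where it lies on the other strand) in capitals, are shown for 6 of the 7 windows because they are what these ciliated genes share in sequence, and none of these genes was called in the comparison of the genotypes.
Dynlrb2, chr8:116504949-116504984 (+): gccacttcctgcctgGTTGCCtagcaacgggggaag
Ccdc153, chr9:44240510-44240545 (+): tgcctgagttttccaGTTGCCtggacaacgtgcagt
Mns1, chr9:72438442-72438477 (+): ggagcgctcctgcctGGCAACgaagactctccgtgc
Mcidas, chr13:112993658-112993693 (+): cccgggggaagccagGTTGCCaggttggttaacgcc
Fam183b, chr11:58801961-58801991 (-): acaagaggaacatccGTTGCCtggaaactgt
Cdhr3, chr12:33092876-33092896 (-): tttggtttcctgcctGGCAAC
The half-site lay 45 bases before the start site in Dynlrb2, 146 in Ccdc153, 66 in Mns1, 189 in Mcidas and 10 in Fam183b, and it touched the start site in Cdhr3. Fam183b held 2 half-sites, of which the one nearer to the start is shown. A window of Tekt1 also held 2, the nearer 9 bases before the start, and is not shown because it lies inside the gene as the table annotates it. Another window of Tekt1 held none, nor did those of Dnah5, Dnah9, Dnaic1, Dnali1, Spag6 and Tekt4. Matching letters are a description and not a site of binding. The row named Spag6 in the table lies on chromosome 16, a locus that RefSeq names Spag6l, and was matched by that locus.

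The libraries held between 21554249 and 28440227 counts, and 3 counts, the least taken as detectable, were worth 0.0976 to 0.138 CPM. CPM are counts scaled to a common library total by TMM. AT2 genes dominated every library: Sftpc stood at 42700 to 60123 CPM. The summed level of 12 AT2 markers was 174980, 162463 and 159933 CPM in AT2CTRL and 140037, 126392 and 113973 CPM in AT2CAB, and in none of the groups was a defining marker of endothelium (Pecam1), leukocytes (Ptprc), mesenchyme (Col1a1) or mesothelium (Msln) at 0. Reads on Y-linked genes were present in AT2CTRL replicate 1 (176 CPM) and AT2CAB replicate 3 (146 CPM) and at 0 in the other 4 libraries.

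Of the 34 genes, 28 passed the filter on low counts: all 17 ciliated genes, 8 of 9 secretory genes, Sox2 and 2 of 5 basal genes. In edgeR's quasi-likelihood test a gene was called at an adjusted p under 0.05 (Benjamini-Hochberg over 16723 genes) and a log2 fold change over 1. Tppp3 was higher in AT2CAB and was the 1 gene of 28 called. No airway gene was called lower. Of all tested genes, 0.227% were called higher and 0.012% lower. At an unadjusted p under 0.05 Tppp3 was higher and Cyp2f2 lower, against 4.62% of all tested genes higher and 5.05% lower. The 3 AT2CAB libraries all lay above the 3 AT2CTRL libraries for Tppp3, Foxj1 and Tekt4 and all below them for Cyp2f2. That separation was seen for 7% of all tested genes upward and 10.1% downward. DESeq2, which called 0.87% of its tested genes higher and 0.183% lower, also called Tppp3 alone among these genes. In bulk RNA from sorted cells, a difference in the number of cells of a type and a difference in RNA per cell cannot be told apart.

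**Figure D1:**
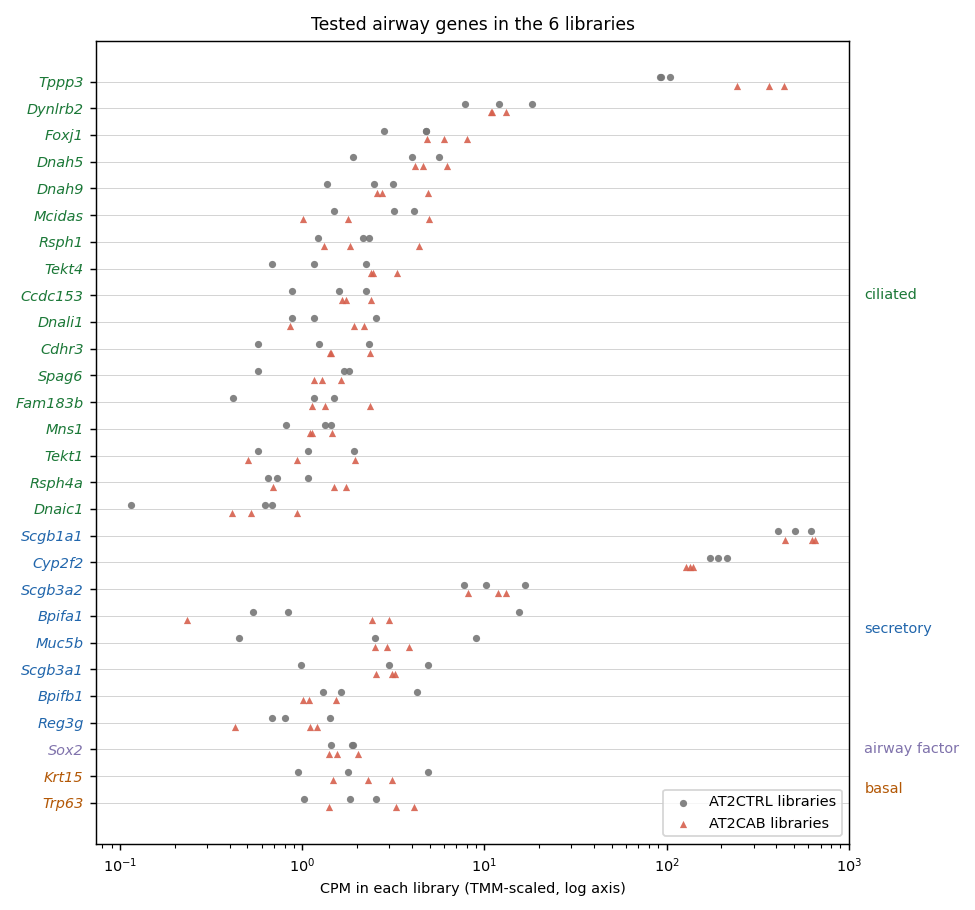
CPM (log axis) of the 28 tested airway genes in each of the 3 AT2CTRL (grey circles) and 3 AT2CAB libraries (red triangles), grouped by cell class. The AT2CAB libraries stand to the right of all AT2CTRL libraries by a wide gap for Tppp3, and the 2 groups overlap for most other genes.

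Tppp3 (chr8:105467492-105471422, minus strand) had 92.3, 93.3 and 104 CPM in the 3 AT2CTRL libraries and 243, 363 and 439 CPM in the 3 AT2CAB libraries. The lowest AT2CAB library was thus above the highest AT2CTRL library, and the AT2CTRL libraries lay close together. The means were 96.5 ± 6.34 CPM and 348.5 ± 98.9 CPM (SD, n = 3 each). Its log2 fold change was 1.85 (SE 0.21, adjusted p = 0.0165 in edgeR's quasi-likelihood test) and 1.86 with DESeq2 (adjusted p = 2.13e-14). Across 11 alternative settings, this DESeq2 fit among them, it lay between 1.66 and 1.99, with adjusted p of at most 0.0225. The rest were limma-voom, other normalizations and filters, age or replicate number in the model, halved counts and a subset of libraries. The value of 1.66 came from the 4 libraries without Y-linked reads (adjusted p = 0.017 in edgeR). With each library left out in turn the log2 fold change stayed between 1.69 and 2.08, but the call was lost without AT2CTRL replicate 1 (edgeR adjusted p = 0.0846), 2 (0.13) or 3 (0.0932) and without AT2CAB replicate 2 (0.0778). An exact permutation test on its log2 CPM gave a two-sided p = 0.1, the smallest that 3 against 3 libraries allow.

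No exon of Tppp3 overlaps another gene of the table. Its 3 neighbours within 50 kb were not called: Lrrc36 (log2 fold change 0.68), Zdhhc1 (0.45), which encodes a palmitoyltransferase, and Hsd11b2 (0.89), which inactivates glucocorticoids, with 0.56 as the lowest adjusted p of the 3 in edgeR. Of the related gene Tppp, AT2CTRL held 12.0, 20.2 and 29.3 CPM and AT2CAB 26.1, 19.5 and 7.78 CPM, so the groups overlapped, and Tppp2 had no read in any library. Among the 12 tested genes of the TPPP family and its tubulin partners other than Tppp3, 0 were called, 5 were positive and the median log2 fold change was -0.02. Of all tested genes, 48.8% were positive. Tppp3, Tubb4b and Tubb5 were the most abundant of this list. Tubb4b, the tubulin isotype of cilia, had 285, 276 and 293 CPM in AT2CTRL and 270, 273 and 290 CPM in AT2CAB (log2 fold change -0.04, SE 0.11). Tubb5, a tubulin of dividing and most other cells, had 180, 144 and 185 CPM in AT2CTRL and 137, 135 and 128 CPM in AT2CAB (log2 fold change -0.34, SE 0.13, adjusted p = 0.449 in edgeR).

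The other 16 ciliated genes did not pass the test. None was called and none had an unadjusted p under 0.05 in edgeR, where the lowest adjusted p was 0.57. Their log2 fold changes ran from -0.16 to 0.99 with a median of 0.36, and 13 of 16 were above 0, beside a median of -0.01 and 48.8% above 0 over all tested genes. Summed over the 16 genes, the level was 52.9, 41.6 and 24.9 CPM in AT2CTRL and 39.3, 41.9 and 59.1 CPM in AT2CAB. These groups overlapped, with AT2CTRL replicate 3 the lowest and AT2CAB replicate 3 the highest of the 6 libraries. The median depended on single libraries: it was 0.03 without AT2CTRL replicate 3, 0.64 without AT2CTRL replicate 1 and 0.13 without AT2CAB replicate 3, and 0.43 in the 4 libraries without Y-linked reads.

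Foxj1, the master transcription factor of motile ciliogenesis, had 4.75, 4.80 and 2.82 CPM in AT2CTRL and 4.86, 5.97 and 7.97 CPM in AT2CAB. The groups did not overlap, but the lowest AT2CAB library lay only just above the highest AT2CTRL library. Its log2 fold change was 0.61 (SE 0.30, adjusted p = 0.57 in edgeR). Mcidas, which acts upstream of Foxj1, had 4.12, 3.17 and 1.49 CPM in AT2CTRL and 1.79, 1.01 and 4.98 CPM in AT2CAB. Its groups overlapped over their whole range (log2 fold change -0.16, SE 0.62, and -0.71 in the 4 libraries without Y-linked reads), and AT2CAB replicate 3 held the highest value.

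The dynein genes also spread widely among the AT2CTRL libraries. Dynlrb2, a light chain of cytoplasmic dynein and the most abundant of the ciliated genes after Tppp3, had 18.3, 12.1 and 7.84 CPM in AT2CTRL and 10.9, 13.2 and 11.03 CPM in AT2CAB. The AT2CAB libraries fell inside the range of the AT2CTRL libraries (log2 fold change -0.12, SE 0.28). Dnah5, an outer arm dynein heavy chain, had 3.99, 5.66 and 1.90 CPM and 4.63, 4.15 and 6.22 CPM in the 2 groups. Dnah9, its partner in the outer arm, had 3.14, 2.49 and 1.37 CPM and 2.57, 2.75 and 4.88 CPM. For both, AT2CTRL replicate 3 was lowest and AT2CAB replicate 3 highest, and their log2 fold changes were 0.38 (SE 0.40) and 0.55 (SE 0.43).

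Tekt4, a tektin of the microtubule doublets, was the nearest to Tppp3 in its difference among the other 16 ciliated genes. It had 1.17, 0.69 and 2.25 CPM in AT2CTRL and 2.38, 2.44 and 3.32 CPM in AT2CAB, so that the groups were apart by a small gap (log2 fold change 0.99, SE 0.49, adjusted p = 0.57 in edgeR). Tekt1, another tektin, had 1.93, 1.07 and 0.57 CPM in AT2CTRL and 0.50, 0.93 and 1.95 CPM in AT2CAB, and its groups spanned the same range. Of the radial spoke genes, Rsph1 had 2.33, 2.14 and 1.22 CPM in AT2CTRL and 1.83, 1.32 and 4.36 CPM in AT2CAB, and its log2 fold change of 0.41 (SE 0.53) turned to -0.23 without AT2CAB replicate 3. Rsph4a had 1.08, 0.73 and 0.65 CPM and 0.69, 1.75 and 1.497 CPM, with 1 AT2CAB library inside the AT2CTRL range.

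The remaining ciliated genes stood near 1 to 2 CPM, and all their groups overlapped. Ccdc153, a coiled-coil ciliated marker, had 2.24, 1.59 and 0.88 CPM in AT2CTRL and 1.65, 1.75 and 2.38 CPM in AT2CAB. Dnali1, an axonemal dynein light intermediate chain, had 2.56, 1.16 and 0.88 CPM and 1.93, 0.85 and 2.18 CPM. The central pair gene in the row Spag6 had 1.70, 1.80 and 0.57 CPM and 1.28, 1.16 and 1.63 CPM, equal in mean. Each of these 3 genes was lowest among AT2CTRL in replicate 3. Cdhr3, a cadherin that serves as the receptor of rhinovirus C in humans, had 2.33, 1.24 and 0.57 CPM in AT2CTRL and 1.42, 1.44 and 2.34 CPM in AT2CAB. Fam183b, a ciliary protein gene, had 1.17, 1.5 and 0.42 CPM and 1.33, 1.12 and 2.34 CPM. Mns1, a protein inside the axonemal microtubules, had 1.44, 0.81 and 1.33 CPM and 1.10, 1.12 and 1.47 CPM, and 14.6% of its length overlaps Tex9, where reads were not counted. Dnaic1, an intermediate chain of the outer arm, did not reach a mean of 1 CPM in either group (0.11 to 0.93 CPM).

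**Figure D2:**
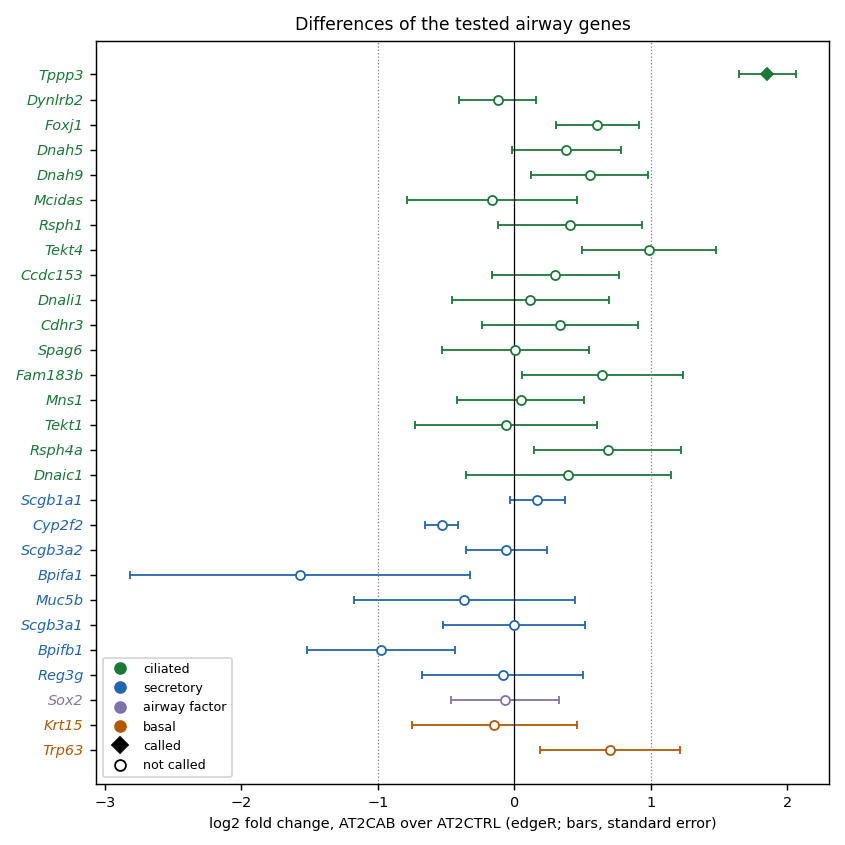
Log2 fold change of AT2CAB over AT2CTRL with its standard error for the 28 tested airway genes, colored by cell class, from edgeR; dotted lines mark a log2 fold change of 1 in either direction. Tppp3, at 1.85, is the 1 filled point, and the other ciliated genes lie between -0.16 and 0.99.

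The ratio of Tppp3 to the other ciliated genes was taken in each library, since it does not depend on how many reads a library holds. Tppp3 over the sum of the 16 genes was 1.75, 2.24 and 4.17 in AT2CTRL and 6.19, 8.67 and 7.44 in AT2CAB. Per length, Tppp3 stood at 176, 198 and 219 TPM (counts per length, scaled to a common total with the gene lengths of the table) in AT2CTRL and 544, 841 and 1026 TPM in AT2CAB, and Foxj1 at 3.61, 4.05 and 2.36 TPM and 4.32, 5.50 and 7.40 TPM. The ratio of the 2 was 48.9, 48.9 and 92.7 in AT2CTRL and 126, 153 and 139 in AT2CAB. It was 2.29-fold higher in AT2CAB on the geometric mean, and every AT2CAB library lay above every AT2CTRL library (exact permutation test, two-sided p = 0.1, the smallest possible). Of the 16 such ratios, all had a higher mean log2 value in AT2CAB, by 0.67 (Tekt4) to 2.18 (Mcidas), and 11 did not overlap between the groups. Tppp3 is in each ratio, so these are not 16 independent results. The ratio of Tppp3 to any other tested gene was apart in this direction for 83.3% of 16586 genes, so the count of 11 of 16 shows nothing particular to ciliated genes. A Tppp3 level of 48.9 times that of Foxj1 or more was thus present already in the AT2CTRL libraries.

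Within the groups, the order of the libraries for Tppp3 was set beside that for the other ciliated genes. Tppp3 varied little within AT2CTRL (92.3 to 104 CPM), where the sum of the 16 genes ranged from 24.9 to 52.9 CPM. AT2CTRL replicate 1 held the most RNA of the 16 genes among AT2CTRL, as it did for 10 of the 16 genes singly, and the least Tppp3. AT2CTRL replicate 3 held the lowest value for 14 of the 16, as for 34.4% of all tested genes, and the most Tppp3. In AT2CAB, replicate 3 was highest for 13 of 16 and for Tppp3. Over all tested genes, 44.0% were highest among AT2CTRL in replicate 1 and 41.8% highest among AT2CAB in replicate 3. Of the 2 libraries with Y-linked reads, AT2CAB replicate 3 exceeded AT2CTRL replicate 1 by 2.25 in log2 for Tppp3, and by a median of 0.18 over the other 16 genes. For 13 of these 16 genes the highest of all 6 libraries was 1 of these 2, as for 50.4% of all tested genes.

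**Figure D3:**
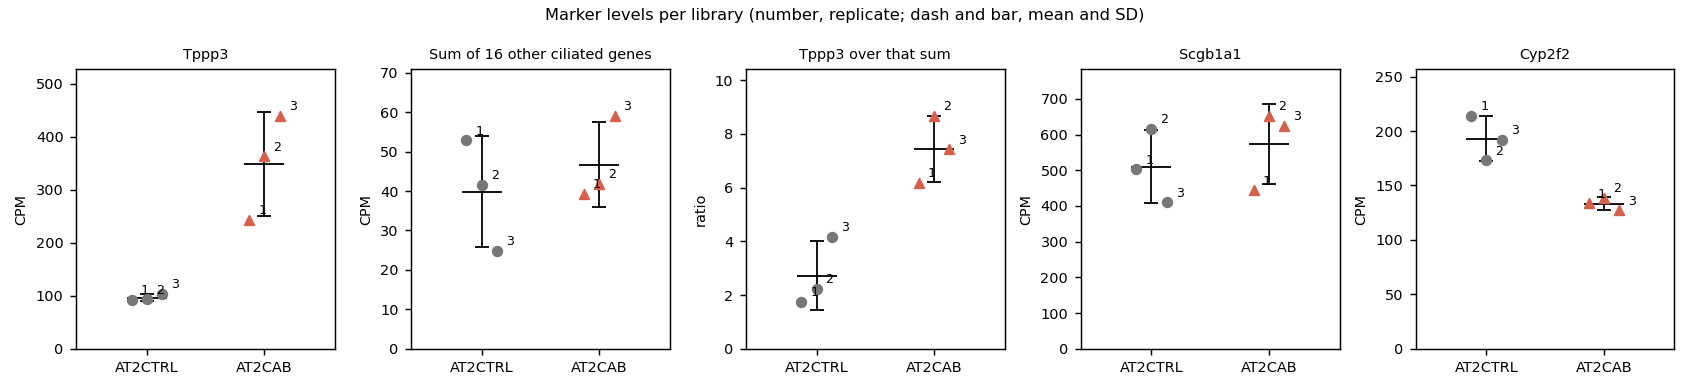
Levels in each library (numbers give the replicate; dash and bar, mean and SD of 3 libraries) of Tppp3, of the sum of the 16 other ciliated genes, of their ratio, and of Scgb1a1 and Cyp2f2, in CPM except for the ratio. The groups are separate for Tppp3, for the ratio (1.75 to 4.17 against 6.19 to 8.67) and for Cyp2f2, and overlap for the ciliated sum and Scgb1a1.

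Further ciliary genes, from lists that did not contain the 17, were also not called. Of 65 tested axoneme genes, 0 were called, 53 were above 0, and the median log2 fold change was 0.36 in edgeR. Over all tested genes, 48.8% were above 0 and the median was -0.01. The medians of the lists of other cells ran from -0.44 (AT2 markers) to 0.73 (leukocyte markers). At an unadjusted p under 0.05, 3 were higher and 0 lower, beside 4.62% and 5.05% of all tested genes. The list summed to 386.5, 296 and 282 CPM in AT2CTRL and 328, 333 and 417 CPM in AT2CAB, which overlap. Among AT2CTRL, 55 of the 65 were highest in replicate 1, and among AT2CAB 45 were highest in replicate 3. Over all tested genes these shares were 44.0% and 41.8%. For 53 of the 65 the highest of all 6 libraries was 1 of the 2 with Y-linked reads, as for 50.4% of all tested genes. The most abundant of the list were Dynlrb1 (a dynein light chain that all cells use), Rsph3a and Dnal1, with log2 fold changes of -0.07, 0.01 and 0.24. The 3 genes under an unadjusted 0.05, named after their values were seen, were Rsph9 (radial spoke, with 8.38, 8.31 and 8.15 CPM in AT2CTRL, 11.2, 12.1 and 13.8 CPM in AT2CAB, edgeR adjusted p = 0.285), Cfap69 (log2 fold change 0.72) and Armc4 (1.80). The log2 fold change of Armc4 was the highest of the 65 and close to that of Tppp3 (1.85), but Armc4 was not called. Of the 65 genes, 6 lay apart upward, these 3 among them, and 2 downward, beside 7% and 10.1% of all tested genes. Of 14 tested regulators of ciliogenesis, 0 were called and the median was -0.08. The most abundant were E2f4, Tfdp1 and Rfx2, which act in many cell types, with log2 fold changes of -0.10, -0.04 and -0.11.

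Scgb1a1 and Cyp2f2, both club cell genes, were the most abundant secretory genes. The groups overlapped for Scgb1a1 and were apart, without a call, for Cyp2f2. Scgb1a1 (chr19:9083642-9087956), the secretoglobin that defines club cells, had 503.5, 617 and 411 CPM in AT2CTRL and 444, 652 and 625 CPM in AT2CAB. Its groups overlapped (log2 fold change 0.17, SE 0.20, adjusted p = 0.82 in edgeR), and per length it was the most abundant of the 34 genes, at a mean of 2289 TPM in AT2CTRL and 2891 TPM in AT2CAB. Cyp2f2 (chr7:27119955-27133660), a cytochrome P450 of club cells, had 214, 173 and 192 CPM in AT2CTRL and 134, 139 and 127 CPM in AT2CAB. All AT2CAB values were below all AT2CTRL values, with means of 193 ± 20.4 CPM and 133 ± 5.72 CPM (SD, n = 3 each). The log2 fold change was -0.53 (SE 0.12), with an adjusted p = 0.19 in edgeR and 0.0158 in DESeq2, where it fell short of the limit of 1 on the log2 fold change. The ratio of Scgb1a1 to Cyp2f2 in TPM was 9.16, 13.9 and 8.32 in AT2CTRL and 12.9, 18.3 and 19.1 in AT2CAB. These values overlapped, and the difference did not pass an exact permutation test (two-sided p = 0.2).

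The less abundant secretory genes varied most among the AT2CTRL libraries. Scgb3a2, a secretoglobin of the small airways, had 7.71, 16.6 and 10.2 CPM in AT2CTRL and 8.16, 11.9 and 13.1 CPM in AT2CAB. Scgb3a1, its relative in the larger airways, had 0.99, 4.89 and 3.01 CPM and 3.12, 3.22 and 2.54 CPM. Their log2 fold changes were -0.06 (SE 0.30) and -0.003 (SE 0.52). Muc5b, the gel-forming mucin of secretory cells, had 0.45, 9.04 and 2.51 CPM in AT2CTRL and 2.93, 2.52 and 3.84 CPM in AT2CAB. Bpifa1, an antimicrobial protein of the upper airways, had 0.54, 15.5 and 0.84 CPM and 2.43, 0.23 and 2.99 CPM. Bpifb1, of the same family, had 1.30, 4.24 and 1.64 CPM and 1.01, 1.09 and 1.53 CPM. In all 5 genes AT2CTRL replicate 2 was the highest of the AT2CTRL libraries. It came from a 16-week-old mouse. AT2CAB replicate 1 came from the other mouse of that age. With age as a covariate in edgeR, the log2 fold changes were -0.01 for Scgb3a2, 0.13 for Scgb3a1 and 0.20 for Muc5b. They were -0.08 for Bpifa1 and -0.79 for Bpifb1. The part of age in these levels was not tested. Reg3g, a lectin that kills bacteria, stayed below a mean of 1 CPM in both groups (0.43 to 1.41 CPM) and was also highest among AT2CTRL in replicate 2. The goblet cell mucin Muc5ac had 13 counts in all 6 libraries together and was not tested.

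Over all tested genes the median log2 fold change was -0.01 and 48.8% were above 0. Over the 8 tested secretory genes the median was -0.23, and 7 of 8 were below 0. This direction rested on AT2CTRL replicate 2: without it the median was 0.31, Muc5b moved from -0.37 to 1.04 and Bpifa1 from -1.57 to 1.44, none of them called. In the 4 libraries without Y-linked reads, which keep AT2CTRL replicate 2, the median was -0.41, and the log2 fold changes were -0.38 for Scgb3a2, -1.04 for Muc5b, -2.62 for Bpifa1 and -1.44 for Bpifb1, with 0.305 as the lowest adjusted p of these 4 genes in edgeR. Besides Scgb1a1 and Cyp2f2, the summed level was 11.8, 51.8 and 18.96 CPM in AT2CTRL and 18.8, 19.6 and 25.3 CPM in AT2CAB. A list of 31 further tested secretory genes held 0 calls and had a median of -0.04 in edgeR. At an unadjusted p under 0.05 it held 1 gene higher and 6 lower, beside 4.62% and 5.05% of all tested genes. Its most abundant genes were Cbr2 (a carbonyl reductase), Ces1d (a carboxylesterase) and Selenbp1, with log2 fold changes of -0.45, -0.45 and -0.38 and no call, and all 3 are known to be expressed outside club cells.

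Sox2, the transcription factor that sets airway identity in the developing lung, had 1.44, 1.89 and 1.90 CPM in AT2CTRL and 1.56, 1.40 and 2.02 CPM in AT2CAB. These values overlapped almost fully (log2 fold change -0.07, SE 0.40).

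Of the basal genes, Krt5, the keratin that defines basal cells, had no read in any of the 6 libraries, which allows at most 0.0976 to 0.138 CPM by counting error alone. Trp63, the basal cell transcription factor, had 1.84, 2.53 and 1.03 CPM in AT2CTRL and 3.25, 1.40 and 4.10 CPM in AT2CAB. Its groups overlapped (log2 fold change 0.70, SE 0.51, adjusted p = 0.69 in edgeR), so Trp63 was read in every library while Krt5 was in none. Krt15 had 4.89, 0.94 and 1.79 CPM and 2.29, 1.47 and 3.09 CPM, and AT2CTRL replicate 1 alone set its high end. Krt14, the partner of Krt5 in keratin filaments, lay between 0.23 and 0.43 CPM, and Krt4, a keratin of squamous and hillock cells, had 16 counts in all 6 libraries together. In a list of 18 further tested basal and hillock genes 0 were called. At an unadjusted p under 0.05 in edgeR, 4 were higher and 1 lower, beside 4.62% and 5.05% of all tested genes. Of the 18, 11 were above 0, beside 48.8% of all tested genes, and the median log2 fold change was 0.31. The most abundant were Icam1, Il33 and Dst, which AT2s or other alveolar cells also express, with log2 fold changes of -0.33, -0.76 and -0.13.

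The neuroendocrine genes were at or near the floor. Calca, which encodes calcitonin and CGRP, had 51 counts and Chga, a granin of secretory granules, 30 counts over the 6 libraries, and neither was tested. Both were highest in AT2CAB replicate 3, Calca at 0.65 CPM and Chga at 0.49 CPM. Of 16 tested other neuroendocrine genes 0 were called, 14 were above 0 and the median log2 fold change was 0.31. Of all tested genes, 48.8% were above 0. The 3 most abundant, Rab3c, Piezo2 and Cplx2, had log2 fold changes of -0.30, 1.07 and 0.02. Tuft cell and ionocyte genes gave 0 calls among 10 tested, of which 6 were above 0 with a median of 0.20, with Foxi1, the ionocyte factor, at 0 reads. The most abundant genes, Atp6v1c2, Cftr and Dclk1, had log2 fold changes of -0.35, -0.73 and -0.58.

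Other cells that a sort for AT2s could hold were read beside these values. The summed endothelial markers were 342, 682 and 438 CPM in AT2CTRL and 596, 959 and 626 CPM in AT2CAB, and the mesenchymal markers 260.4, 375 and 306 CPM and 429, 547.5 and 478 CPM. All 12 mesenchymal and all 12 endothelial markers were above 0 in log2 fold change, beside 48.8% of all tested genes. At an unadjusted p under 0.05 in edgeR, 5 mesenchymal and 6 endothelial markers were higher, beside 4.62% of all tested genes. All AT2CAB libraries lay above all AT2CTRL libraries for 4 mesenchymal and 1 endothelial marker, beside 7% of all tested genes. None was called, and the mesenchymal sums did not overlap between the groups. The sums of the 12 AT2 markers, given above, did not overlap either and were lower in AT2CAB. Of these 12 markers, 11 were below 0, with a median of -0.44 and 0 calls in edgeR. All AT2CAB libraries lay below all AT2CTRL libraries for 7 of them, beside 10.1% of all tested genes. At an unadjusted p under 0.05 in edgeR, 6 of them were lower, beside 5.05% of all tested genes. Leukocyte markers summed to 299, 412 and 486 CPM and 584, 464 and 286 CPM. AT1 markers summed to 3815, 3660 and 2984 CPM and 3385, 3925 and 3274 CPM, and mesothelial markers to 31.1, 36.0 and 17.9 CPM and 27.8, 35.3 and 66.95 CPM. As for the 16 ciliated genes, the mesothelial sum was lowest in AT2CTRL replicate 3 and highest in AT2CAB replicate 3. The part of these cells in the level of Tppp3 or Cyp2f2 was not tested.

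**Figure D4:**
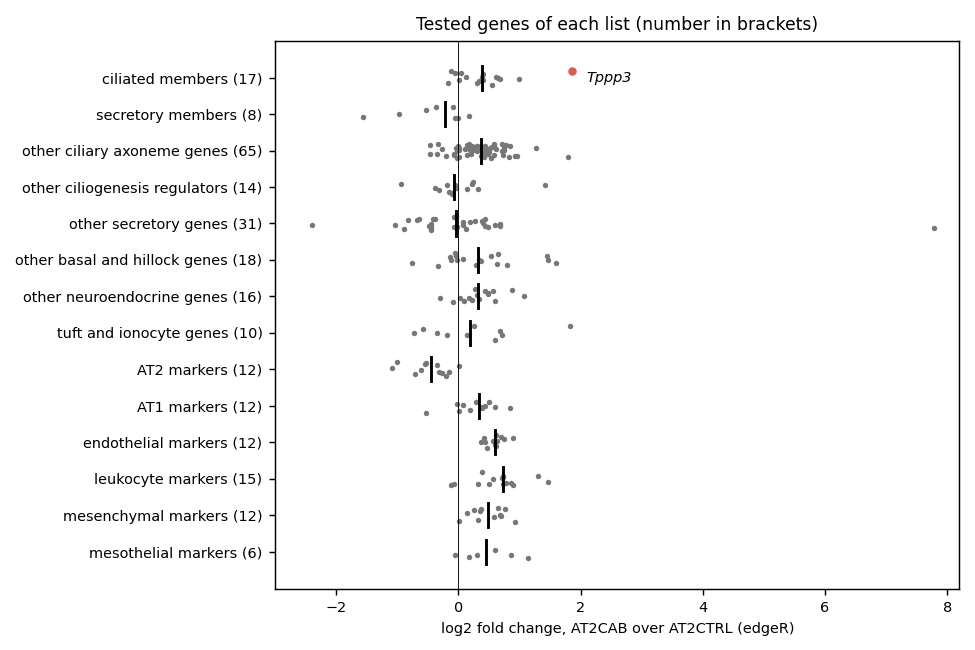
Log2 fold change (edgeR) of the tested genes of each list, with the list's median as a black bar; the red point is called. Tppp3 is the 1 called gene, the medians lie between -0.44 (AT2 markers) and 0.73 (leukocyte markers), and the far right point among other secretory genes is Dcpp3, which was at 0 in AT2CTRL and whose fitted value depends on the prior count.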

How the data were processed

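RNA of sorted, lineage-labeled AT2s was sequenced as paired reads from 3 AT2CTRL and 3 AT2CAB mice. The authors trimmed reads, aligned them to mm10 with HISAT2, removed duplicates and counted on genes with featureCounts 1.5.3, and deposited raw counts without normalization. The study's methods state that fragments were counted. The counting ignored strand and dropped reads that fell on more than 1 gene. Even numbers were 56.9% to 60.8% of small counts, so mates may instead have been counted separately, which would overstate the precision of low counts. Groups and replicate numbers came from the sample labels.

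Counts were tested with edgeR 4.0.16 (R 4.3.3; quasi-likelihood test after TMM scaling and the default expression filter at 10 counts, Benjamini-Hochberg over 16723 genes), checked on simulated data. DESeq2 1.42.0, limma-voom (limma 3.58.1), other normalizations and filters, age, the replicate block, halved counts and libraries left out were alternatives. The 34 genes and all lists were chosen with earlier results of these data known. Per-library values are given for genes with a mean of at least 1 CPM in either group; of other lists the called and the 3 most abundant genes are named. Replicates of a group differed beyond counting noise. Same-numbered libraries correlated at -0.315, 0.246 and -0.535 in their deviations, so numbers do not pair libraries. The highest correlation across the groups was 0.608, between AT2CTRL replicate 1 and AT2CAB replicate 3, the 2 libraries with Y-linked reads.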

Additional observations from a re-analysis of the deposited data

How the results depend on the processing

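The number of genes called higher over the whole table was 38, and it was 119 with DESeq2, 25 with limma-voom and 6 to 59 with each library left out. The number called lower was 2, and it was 25 with DESeq2, 1 with limma-voom, 1 with upper-quartile scaling, 1 with library size only, 5 with no filter, 1 with age as a covariate, 8 in the 4 libraries without Y-linked reads and 0 to 4 with each library left out. Among the airway genes, calls higher were 0 to 1 with each library left out, and Tppp3 ranged from 1.69 to 2.08 there in log2 fold change. The cause of these moves was not tested. Library size only moved the median of all tested genes to 0.12, and the values under it are shifted by about that much.

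In the fit with a replicate block, 5 genes were called lower, Tppp3 stood at 1.81 (adjusted p = 0.0225 in edgeR), Scgb3a1 at 0.22, Bpifa1 at 0.20, Muc5b at 0.40 and Krt15 at 0.11. The numbers do not pair the libraries, and the block changed no call among the airway genes.

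Among the uncalled genes, changes of sign in log2 fold change were as follows. With library size only, Dynlrb2 was 0.0025, Tekt1 0.079, Scgb3a1 0.13, Scgb3a2 0.081, Sox2 0.066 and Reg3g 0.045. With upper-quartile scaling, Tekt1 was 0.022, Scgb3a1 0.077, Scgb3a2 0.026 and Sox2 0.015. With limma-voom, Tekt1 was 0.0096, Scgb3a1 0.22, Scgb3a2 0.014, Muc5b 0.46 and Krt15 0.16. With age as a covariate, Scgb3a1 was 0.13, Muc5b 0.20 and Krt15 0.022. Without the libraries with Y-linked reads, Dynlrb2 was 0.31, Rsph1 -0.059 and Krt15 0.48. Scgb3a1 was 0.0029 with DESeq2, 0.0026 with its size factors in edgeR, 0.025 at 1 CPM or more in 3 libraries and 0.0145 with halved counts, and Spag6 was -0.0097 with no filter. With each library left out, the ranges were Dynlrb2 -0.38 to 0.23, Rsph1 -0.23 to 0.73, Tekt1 -0.66 to 0.47, Dnali1 -0.17 to 0.69, Spag6 -0.37 to 0.26, Mns1 -0.17 to 0.19, Cdhr3 -0.043 to 0.93, Mcidas -1.02 to 0.23, Scgb3a1 -0.42 to 0.55, Scgb3a2 -0.28 to 0.30, Bpifa1 -2.11 to 1.44, Muc5b -0.90 to 1.04, Sox2 -0.20 to 0.049 and Krt15 -0.54 to 0.73. Reg3g was 0.28 without AT2CTRL replicate 2 and 0.26 without AT2CAB replicate 2, and Dnaic1 -0.08 without AT2CTRL replicate 3. Cyp2f2 was called by DESeq2's adjusted p (log2 fold change -0.52), short of the limit on the fold. With 3 counts worth about 0.1 CPM, genes near 1 CPM could show only large differences.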

Other observations

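Among the further lists, a few genes chosen after their values were seen stood apart without being called. Pon1, an enzyme carried on high-density lipoprotein and used here as a club cell gene, had 86.0, 104.5 and 126 CPM in AT2CTRL and 34.3, 18.8 and 6.96 CPM in AT2CAB (log2 fold change -2.40, SE 0.48, adjusted p = 0.132 in edgeR). Hp, which encodes haptoglobin, had 885, 896 and 772 CPM in AT2CTRL and 588, 437 and 222 CPM in AT2CAB (log2 fold change -1.03, adjusted p = 0.345 in edgeR). For both, every AT2CAB library lay below every AT2CTRL library.

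Dcpp3, a secreted protein gene with close paralogs that can share its reads, was at 0 in all AT2CTRL libraries and at 0.46, 0.97 and 1.82 CPM in AT2CAB, at least 8.62-fold higher against a floor of 3 counts per library (adjusted p = 0.132 in edgeR). Piezo2, a mechanically gated channel of sensory and neuroendocrine cells, had 8.25, 8.10 and 4.99 CPM in AT2CTRL and 11.2, 14.6 and 18.7 CPM in AT2CAB (log2 fold change 1.07, adjusted p = 0.23 in edgeR). Sfn, a 14-3-3 protein of squamous and stressed epithelium, had 40.7, 28.2 and 34.7 CPM in AT2CTRL and 45.3, 58.0 and 180.5 CPM in AT2CAB, where replicate 3 stood above the other 2 libraries.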
